A study of Rattus norvegicus with 18 samples.

Results

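Srrm2, Cwc25, Puf60, Rbm11, Khsrp, Ddx6 and Pias1 are 7 regulators of RNA splicing, RNA decay and SUMO attachment, measured here on microarrays of rat bone marrow mesenchymal stem cells (BMSC), the adherent stromal cells of the marrow. They were chosen from earlier results on these same arrays because their values differed between diets, so their diet differences are given as a description, with no test. The array carries 31099 probe sets, short oligonucleotide groups that each read 1 stretch of transcript, and 13 of them name exactly 1 of these 7 genes, of 14217 genes named in that way. Of the 13, 12 passed the filter on dim probe sets, which left 21729 for testing, and the remaining one, for Khsrp, lay below it.

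The cells came from Sprague-Dawley rats that were 6 weeks old when feeding began and were fed for 1, 2 or 4 months, either normally (ND) or with a high-fat diet (HFD). ND was 100% basal diet, and HFD was 60% basal diet with 20% lard, 10% sucrose and 10% egg yolk powder. Each of the 6 groups of diet and feeding time held 3 arrays, 18 in all, and all cells came from whole marrow plated directly onto plastic and grown in culture. The sample labels give passage 3 and the series text passage 1, so the number of passages was not settled, and the sources give 3 per group without saying whether these were separate rats. P-values therefore measure the spread between these arrays.

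A newly made transcript is spliced by the spliceosome, an assembly of small nuclear ribonucleoproteins (snRNPs) and joining factors that marks the splice sites, rearranges and then carries out the cutting and joining. In the cytoplasm the mature messenger is degraded after its poly(A) tail has been shortened and its cap removed, and AU-rich elements in the 3' untranslated region speed this for many inflammatory and growth-related messengers. Srrm2 is a large serine- and arginine-rich scaffold of nuclear speckles, Cwc25 joins the spliceosome around its catalytic step, Puf60 helps to recognise the polypyrimidine tract near the 3' splice site, and Rbm11 is a tissue-restricted splicing regulator. Khsrp (KSRP) binds AU-rich elements and recruits the decay machinery, and Ddx6 is the RNA helicase of processing bodies that links translational repression to decapping. Pias1 is a ligase that attaches the small modifier SUMO to nuclear proteins.

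The cultures carried stromal transcripts together with a variable content of macrophage transcripts. Of 17 stromal markers on the array 16 were above the filter, with Thy1 between 11.71 and 12.13 log2 units over the 18 arrays and Col1a1 between 12.04 and 12.70, while the leptin receptor Lepr was below it. Above the filter were 4 of 11 endothelial, 4 of 8 erythroid, 6 of 10 lymphoid and 5 of 9 granulocyte markers. Among the endothelial markers Pecam1 lay between 1.86 and 2.90, but Egfl7 between 6.36 and 6.90 and Esam between 4.93 and 6.97. All 30 macrophage and monocyte markers were above the filter, and the leukocyte phosphatase Ptprc ran from 2.18 to 7.96 log2 units. A macrophage mean was taken over 26 of these genes, those with a value on every array, each centred over arrays. At 1 month it stood at -1.26 ± 2.44 (SD, n = 3) for ND and -0.10 ± 0.87 for HFD. At 2 months the same values were 0.47 ± 1.93 and -1.15 ± 1.19, and at 4 months 0.76 ± 0.96 and 1.28 ± 0.21. It was thus higher in HFD at 1 and 4 months and lower at 2 months, each time by less than the SD within ND. Since these are bulk cultures, fewer cells of a type and less RNA per cell cannot be told apart.

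The promoter windows of Khsrp, Cwc25 and Pias1 are shown because these are the members that the promoter table used here holds. Each is the 250 bases before the start that RefSeq's table gives for the gene on the GRCr8 assembly, 5' to 3' on the gene's strand. Capitals mark matches, on either strand, to 4 motifs. The GC box was searched as GGGCGG. The CAAT box of many promoters was searched as CCAAT. The TATA box near the start of transcription was searched as TATAAA. The core of the ETS factor site was searched as CCGGAAG. Windows of Srrm2, Ddx6, Puf60 and Rbm11 were not used here.
Khsrp, chr9:1959401-1959650, minus strand: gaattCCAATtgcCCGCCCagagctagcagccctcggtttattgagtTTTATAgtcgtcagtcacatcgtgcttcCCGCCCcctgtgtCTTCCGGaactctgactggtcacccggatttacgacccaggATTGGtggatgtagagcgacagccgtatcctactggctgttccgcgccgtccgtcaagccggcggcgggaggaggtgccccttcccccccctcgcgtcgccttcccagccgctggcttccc
Cwc25, chr10:83256723-83256972, minus strand: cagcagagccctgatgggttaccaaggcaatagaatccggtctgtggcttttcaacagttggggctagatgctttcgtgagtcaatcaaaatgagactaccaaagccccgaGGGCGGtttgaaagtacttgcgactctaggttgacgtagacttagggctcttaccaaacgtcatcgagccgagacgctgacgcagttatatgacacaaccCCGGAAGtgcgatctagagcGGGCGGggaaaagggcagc
Pias1, chr8:72334312-72334561, minus strand: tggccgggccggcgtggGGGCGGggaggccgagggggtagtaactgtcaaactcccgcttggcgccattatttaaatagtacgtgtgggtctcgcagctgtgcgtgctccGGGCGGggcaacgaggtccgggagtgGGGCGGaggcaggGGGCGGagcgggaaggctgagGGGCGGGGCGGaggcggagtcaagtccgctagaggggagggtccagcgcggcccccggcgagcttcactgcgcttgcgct

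The G and C content was 62% in Khsrp and 70.8% in Pias1, against a median of 51.2% over 33469 promoters, and Cwc25 lay near that median at 52.8%. All 3 held the GC box, which 30.5% of those promoters hold: 2 matches in Khsrp, 2 in Cwc25 and 6 in Pias1, of which the last 2 overlap by 1 base. The ETS letters occurred in Khsrp and Cwc25 and in 7.27% of promoters, the CAAT box in Khsrp alone of the 3 and in 34.0%, and the TATA letters in Khsrp alone and in 12.9%. That TATA match lies on the opposite strand, 203 bases before the start, and so not near it. None of the 3 held the E-box CACGTG, found in 5.59% of promoters. The same was true of the NRF1 letters GCGCATGC, found in 2.2%, and of the cyclic AMP response element TGACGTCA, found in 1.59%. The Pias1 window lies inside the annotated bounds of its gene, so it is not the stretch before the outermost start. A match describes letters only, and no binding was measured.

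Levels are log2 of the deposited intensity, compared between arrays for 1 probe set at a time, apart from the within-array gap between probe sets of a gene, and differences are HFD minus ND with the standard error (SE) of a linear model over all arrays in limma. An adjusted p (Benjamini-Hochberg) under 0.05 was called a pass. At 1 month 0% of the 21729 tested probe sets passed in HFD against ND, although 2124 had an unadjusted p under 0.05 and the lowest adjusted p was 0.0513. At 2 months 2.54% passed, at 4 months 0% with 811 at an unadjusted p under 0.05, and for the average over times 2.82%. All 12 tested probe sets of the 7 genes had negative differences at 1 month, 10 did at 2 months and 9 at 4 months, while over all tested probe sets 60.3%, 50.4% and 51.5% were negative. These shares are given for scale only, since the genes were picked on these contrasts.

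**Figure D1:**
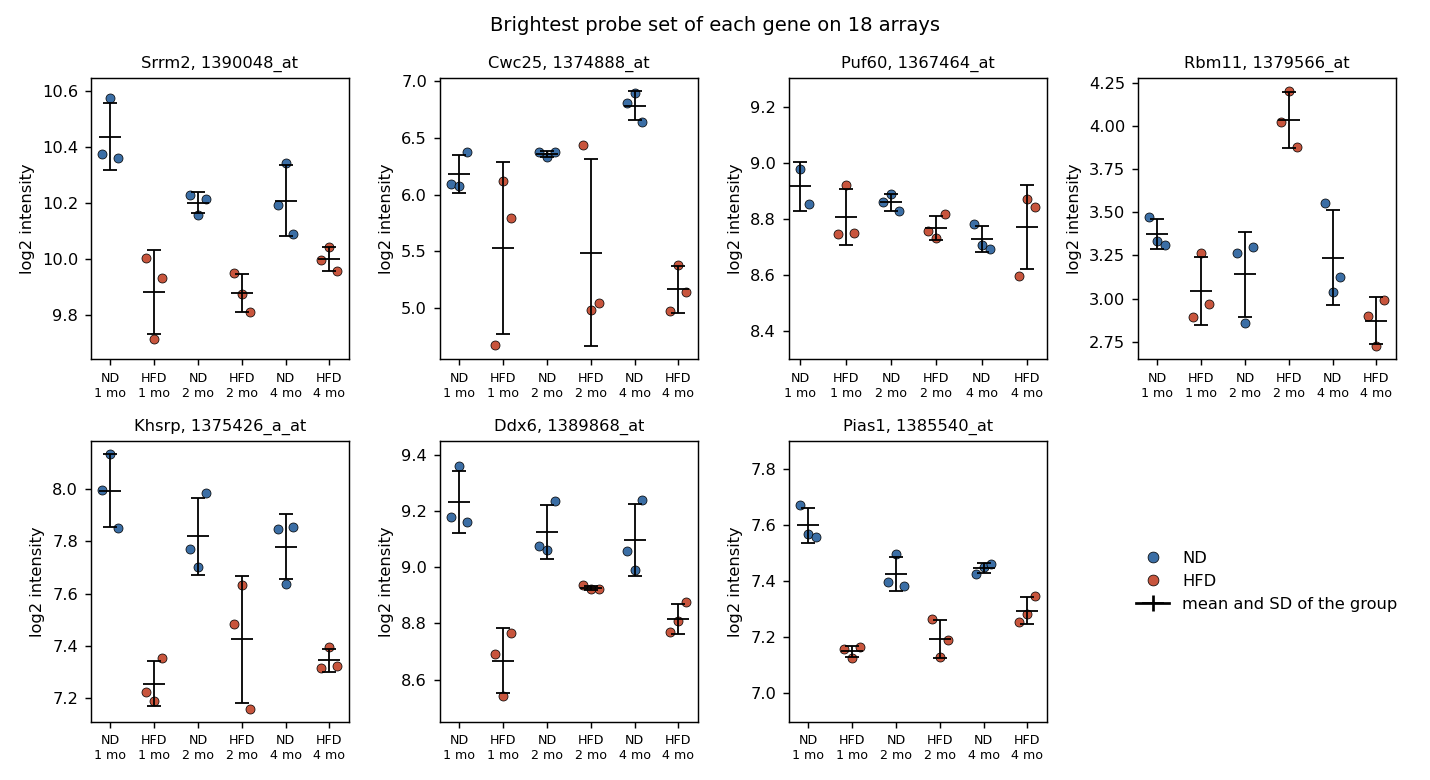
Log2 intensity of the brightest probe set of each of the 7 genes on every array (vertical axes, log2 units, each with its own range), by diet and feeding time. Points are arrays, horizontal bars group means and whiskers SD (n = 3, and n = 2 for Puf60 in ND at 1 month). In Srrm2, Khsrp, Ddx6 and Pias1 all 9 HFD arrays lie below all 9 ND arrays, and Rbm11 is highest in HFD at 2 months.

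Srrm2, on chromosome 10 (GRCr8, chr10:13320059-13353337), was read by a pair of probe sets, of which the brighter, 1390048_at, was lower on every HFD array than on any ND array. In ND it read 10.38, 10.57 and 10.36 at 1 month, 10.23, 10.16 and 10.22 at 2 months and 10.19, 10.34 and 10.09 at 4 months. In HFD it read 10.00, 9.72 and 9.93, then 9.95, 9.88 and 9.81, then 10.00, 10.04 and 9.96. The lowest ND array and the highest HFD array, both at 4 months, were the closest, and the groups did not overlap at any time. The difference was -0.55 ± 0.10 (SE, n = 3 per group) at 1 month, -0.32 ± 0.10 at 2 months and -0.21 ± 0.10 at 4 months, and the 3 average to -0.36 ± 0.06, a change of -22.1%. Without ND 4-month replicate 2 the 4-month value was -0.14.

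The other Srrm2 probe set, 1398940_at, did not share this pattern. Its values ran from 8.15 to 8.42 in ND and from 8.07 to 8.45 in HFD, so the diets overlapped. Its differences were -0.09, -0.04 and 0.11 at 1, 2 and 4 months, each with an SE of 0.10. Averaging both probe sets gave -0.18 in place of -0.36.

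Cwc25 (chr10:83232052-83256722), a factor of the catalytic step, had the widest spread and the largest difference at 4 months. Its single probe set 1374888_at read 6.09, 6.08 and 6.37 in ND at 1 month, 6.37, 6.33 and 6.37 at 2 months and 6.81, 6.90 and 6.64 at 4 months. In HFD it read 4.67, 6.12 and 5.80 at 1 month, 6.44, 4.98 and 5.04 at 2 months and 4.97, 5.38 and 5.14 at 4 months. ND arrays thus stayed close together, while HFD arrays were split: 2 of them, replicate 2 at 1 month and replicate 1 at 2 months, lay within the ND range and the other 7 below every ND array. The SD in HFD was 0.76 at 1 month and 0.83 at 2 months but 0.21 at 4 months, against 0.03 to 0.17 in ND. The groups separated fully at 4 months alone.

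The Cwc25 differences were -0.65 ± 0.36 at 1 month, -0.87 ± 0.36 at 2 months and -1.62 ± 0.36 at 4 months, the last a 3.08-fold lower level. At 1 and 2 months they turned on single arrays. Without HFD 1-month replicate 1 the first was -0.23, without HFD 1-month replicate 2 it was -0.95, and without HFD 2-month replicate 1 the second was -1.35. At 4 months the value stayed between -1.73 and -1.52 with each array left out in turn.

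Puf60 (chr7:109663490-109674443), the polypyrimidine tract factor, was nearly level. Its probe set 1367464_at has no value on ND 1-month replicate 1, so 17 arrays were used. In ND it read 8.98 and 8.85, then 8.86, 8.89 and 8.83, then 8.78, 8.71 and 8.69, and in HFD 8.75, 8.92 and 8.75, then 8.76, 8.73 and 8.82, then 8.60, 8.87 and 8.84. The diets overlapped at 1 and 4 months, and at 2 months all 3 HFD arrays lay just below all 3 ND arrays. The differences were -0.11 ± 0.10, -0.09 ± 0.09 and 0.04 ± 0.09, and the average of -0.05 ± 0.06 turned to 0.01 with quantile normalization.

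Rbm11 (chr11:27721870-27731125) was dim, with a mean of 3.28 log2 units just above the filter at 3.22, and it was the only gene of the 7 whose brightest probe set was higher under HFD with no overlap at any time. Probe set 1379566_at read 3.26, 2.86 and 3.30 in ND and 4.02, 4.20 and 3.88 in HFD at 2 months. At 1 month it read 3.47, 3.33 and 3.31 in ND and 2.90, 3.27 and 2.97 in HFD, and at 4 months 3.55, 3.04 and 3.13 against 2.90, 2.72 and 3.00. All HFD arrays were therefore above all ND arrays at 2 months and below them at 1 and 4 months, so the 3 HFD arrays at 2 months were the highest of the 18. The differences were -0.33 ± 0.16, 0.89 ± 0.16 and -0.37 ± 0.16. Outside those 3 arrays the values lay between 2.72 and 3.55, with a mean of 3.13 over the 15 arrays, so the probe set passed the filter only through the group in which it was high.

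Khsrp (chr9:1949557-1959400), the AU-rich element binding protein, had the largest 1-month difference of the 4 genes without any overlap. Probe set 1375426_a_at read between 7.85 and 8.13 on the 3 ND arrays at 1 month, 7.77, 7.70 and 7.98 at 2 months and 7.85, 7.64 and 7.86 at 4 months. In HFD it read 7.22, 7.19 and 7.35, then 7.48, 7.63 and 7.16, then 7.31, 7.39 and 7.32. The highest HFD array, replicate 2 at 2 months, was just under the lowest ND array, replicate 2 at 4 months. The differences were -0.74 ± 0.13, -0.40 ± 0.13 and -0.44 ± 0.13, averaging -0.52 ± 0.07, a change of -30.5%. Without HFD 2-month replicate 3 the 2-month value was -0.26.

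The remaining Khsrp probe sets showed smaller differences. Probe set 1376525_at, with a mean of 4.36, ran from 3.84 to 4.94 in ND and from 4.00 to 4.51 in HFD and differed by -0.24, -0.15 and -0.03, each with an SE of 0.21. Probe set 1369170_at, with a mean of 2.55, was below the filter, and its values lay between 2.23 and 2.93.

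Ddx6 (chr8:53827661-53864538), the processing body helicase, was read by 3 probe sets that did not move alike. The brightest, 1389868_at, read 9.18, 9.36 and 9.16 in ND at 1 month, 9.08, 9.06 and 9.24 at 2 months and 9.06, 8.99 and 9.24 at 4 months. In HFD it read 8.69, 8.54 and 8.77, then 8.94, 8.92 and 8.92, then 8.77, 8.81 and 8.87, all below every ND array. The differences were -0.57 ± 0.10, -0.20 ± 0.10 and -0.28 ± 0.10, averaging -0.35 ± 0.06, a change of -21.5%.

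The dim probe set 1392854_at, with a mean of 4.47, had differences of -0.88 ± 0.23, -0.16 ± 0.23 and -0.30 ± 0.23. Probe set 1398945_at, with a mean of 8.23, went the other way at 2 months, where HFD read 8.48, 8.41 and 8.30 and ND 8.16, 8.11 and 8.10, a difference of 0.27 ± 0.15 with no overlap. At 1 and 4 months it differed by -0.08 and 0.04. With the 3 probe sets averaged, the 2-month value for Ddx6 was -0.03 and the average over times -0.24.

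Pias1 (chr8:72233566-72347085), the SUMO ligase, had a narrow spread within groups, and both its probe sets were lower under HFD at all times. Probe set 1385540_at read 7.67, 7.57 and 7.55 in ND at 1 month, 7.40, 7.50 and 7.38 at 2 months and 7.43, 7.45 and 7.46 at 4 months. In HFD it read 7.16, 7.13 and 7.16, then 7.26, 7.13 and 7.19, then 7.25, 7.28 and 7.35, again all below every ND array. The differences were -0.45 ± 0.07, -0.23 ± 0.07 and -0.15 ± 0.07, averaging -0.28 ± 0.04, a change of -17.5%. Probe set 1382191_at ran from 6.97 to 7.28 in ND and from 6.82 to 7.06 in HFD and differed by -0.21, -0.19 and -0.14, each with an SE of 0.10.

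The gap in log2 intensity between the brightest and each other tested probe set of a gene was taken within each array, as a description, since the genes were chosen on the diet difference. For Srrm2 it was 2.00 ± 0.12 (SD, n = 9) over ND arrays and 1.65 ± 0.10 over HFD arrays. For Khsrp with 1376525_at the values were 3.44 ± 0.27 and 3.05 ± 0.20, and for Ddx6 with 1398945_at 0.96 ± 0.17 and 0.53 ± 0.12. These 3 gaps were smaller in HFD by more than the SD of either diet, while the remaining 2 were not. For Ddx6 with 1392854_at the gap was 4.46 ± 0.23 in ND and 4.56 ± 0.37 in HFD, and for the Pias1 pair 0.34 ± 0.13 and 0.24 ± 0.10.

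**Figure D2:**
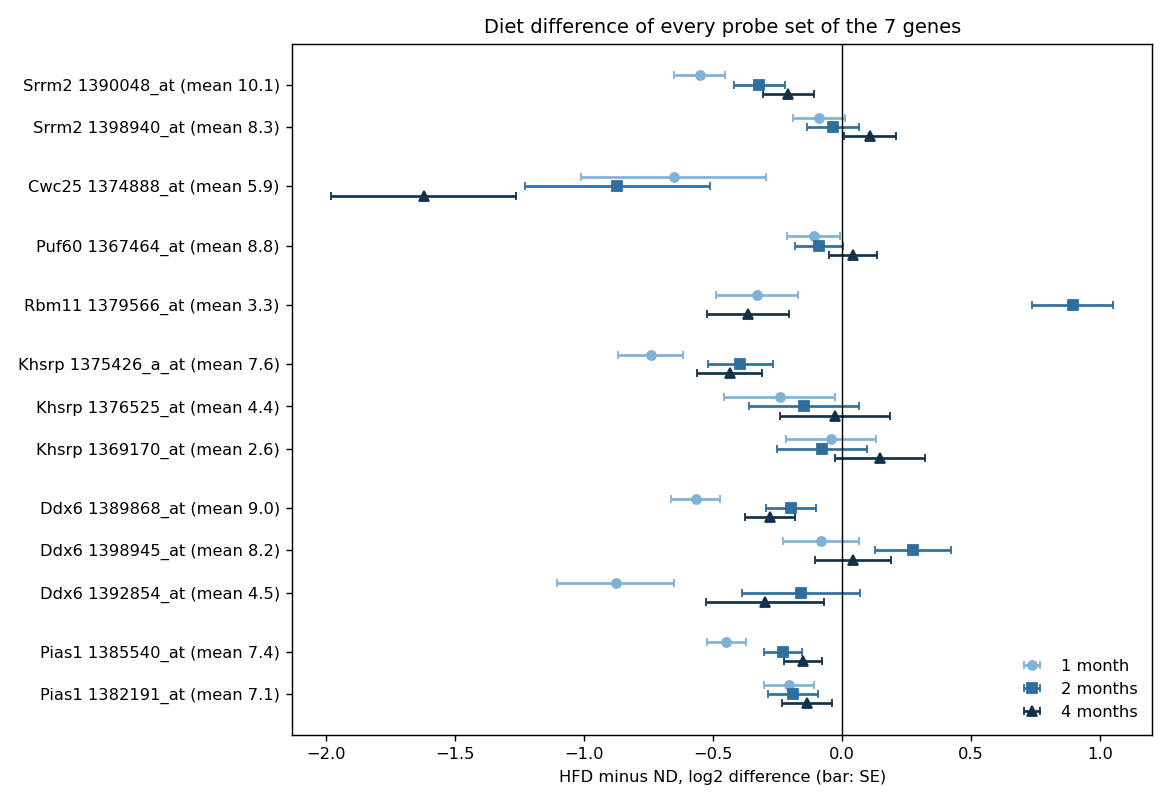
HFD minus ND difference (horizontal axis, log2) of all 13 probe sets of the 7 genes at 1, 2 and 4 months, with SE bars (n = 3 arrays per group). The mean log2 level of each probe set is in its label. The brightest probe sets of Srrm2, Khsrp and Ddx6 lie left of 0 at all times, while Srrm2 1398940_at and Ddx6 1398945_at cross it, and Rbm11 lies right of 0 at 2 months only.

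Counted over all 13 probe sets, HFD and ND did not overlap in 7 at 1 month, all with HFD lower. At 2 months 8 did not overlap, 6 with HFD lower and 2 higher, and at 4 months 6, all lower. Among all tested probe sets the shares without overlap were 16.6%, 24.7% and 8.54% at these times. Over all 18 arrays 4 of the 13 had every HFD array below every ND array, as had or reversed 0.262% of the tested probe sets. These 4 are the brightest probe sets of Srrm2, Khsrp, Ddx6 and Pias1, and the choice of genes on the diet contrast fixes this in part.

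These 4 probe sets also ran together over the 18 arrays. Pearson's r was 0.92 for Khsrp with Ddx6, 0.88 for Srrm2 with Pias1, 0.85 for Srrm2 with Khsrp, 0.82 for Pias1 with Khsrp and with Ddx6, and 0.80 for Srrm2 with Ddx6. After each group mean was subtracted, r was 0.59 for Khsrp with Ddx6 and between -0.20 and 0.25 for the other pairs of the 4. The correlations over all arrays thus carry the diet difference that the genes were chosen on, and within groups the Khsrp and Ddx6 pair was the closest among the 4. Cwc25 had r between 0.52 and 0.63 with the 4 over all arrays and between -0.19 and 0.25 within groups. Probe sets of the same gene did not always run together: within groups r was 0.42 for the Srrm2 pair, 0.54 for Khsrp 1375426_a_at with 1376525_at, 0.44 and 0.09 for the brightest Ddx6 probe set with the other two, and 0.03 for the Pias1 pair.

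**Figure D3:**
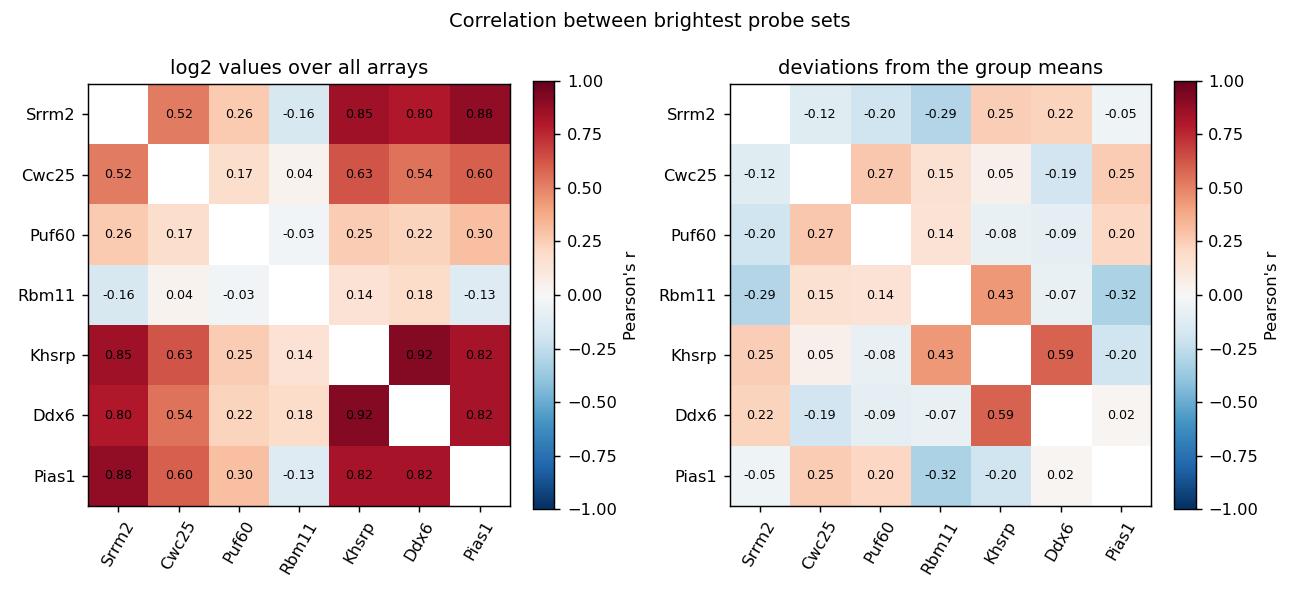
Pearson's r between the brightest probe sets of the 7 genes, over all 18 arrays (left, 17 for Puf60) and after subtracting each group's mean (right). Colour and number give r. The block of Srrm2, Khsrp, Ddx6 and Pias1 is between 0.80 and 0.92 on the left, and on the right only Khsrp with Ddx6 stays high among them, at 0.59.

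The named genes whose levels ran most like each of the 7 over the arrays were taken by Pearson's r, as a description. For Srrm2 they were Ash1l (0.92), Zyg11b (0.90) and Pdxdc1 (0.89), and for Pias1 Med1 (0.90), Ash1l (0.88) and Srrm2 itself (0.88). For Khsrp they were Srrm1 (0.94), Ddx6 (0.92) and U2surp (0.92), and for Ddx6 Khsrp (0.92), Ash1l (0.89) and Taok1 (0.88). Ash1l, a histone methyltransferase, thus stood in 3 of the 4 lists. Cwc25 had looser matches in Limd1 (0.81), Zbtb14 (0.77) and Derl2 (0.73). Puf60 was closest to Polr2j (0.87), Trpc4ap (0.86) and Bap1 (0.86) over 17 arrays, and Rbm11 to Cib2 (0.84) over 18 and to Srp14 (0.82) and Nop10 (0.82) over 17.

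Feeding time, averaged over the diets, was tested because it does not use the diet contrast on which the genes were chosen. All rats began feeding at 6 weeks of age, so feeding time and the age of the rats cannot be told apart. Rbm11 is left out here, because it passed the filter only through the HFD arrays at 2 months. In limma none of the other 11 tested probe sets passed in any of the 3 time comparisons, and 0, 1 and 0 had an unadjusted p under 0.05 for 2 minus 1, 4 minus 2 and 4 minus 1 month. Among all 21729 tested probe sets 0%, 0.133% and 0.12% passed, and 834, 3142 and 3147 had an unadjusted p under 0.05. The lowest p was that of Ddx6 1392854_at for 4 minus 2 months, at -0.40 ± 0.16 (adjusted p = 0.286 in limma, n = 6 arrays per time). Srrm2 1390048_at stood at -0.12 ± 0.07 for 2 minus 1 month, and the other brightest probe sets lay between -0.06 and 0.08 there.

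Whether the 7 genes followed the macrophage or proliferating content of a culture was tested with slopes within groups, which use only differences between arrays of the same group. Rbm11 is left out of the counts, as for feeding time. On the macrophage mean 16.6% of all tested probe sets passed, and of the other 11 here 1 did. A diet contrast is tested against the spread within groups. Choosing genes on it may therefore favour probe sets that vary little there. The share over all probe sets is thus given for scale only, here and for the cell cycle slope. Khsrp 1376525_at fell by 0.15 log2 units per unit of the macrophage mean, with an SE of 0.04 (adjusted p = 0.0117 in limma). It was lower in cultures with more macrophage RNA, and it did not pass with array weights (adjusted p = 0.154), without ND 1-month replicate 1 (0.126) or without ND 2-month replicate 3 (0.0815). The brightest probe set of Khsrp had a slope of -0.04 ± 0.03, that of Ddx6 -0.03 ± 0.02, and those of Srrm2, Pias1, Puf60 and Rbm11 lay between -0.01 and 0.02, with Cwc25 at -0.05 ± 0.09. With the macrophage mean as a covariate the average diet differences stood at -0.36 for Srrm2, -0.52 for Khsrp, -0.35 for Ddx6, -0.28 for Pias1 and -1.05 for Cwc25, within 0.01 of those without it. The macrophage mean was higher in HFD at 1 and 4 months and lower at 2 months, so its diet difference largely cancels in this average. The covariate could therefore hardly move these values, and the part of macrophage content in the diet differences was not tested.

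On the mean of 39 cell cycle genes 2.32% of all tested probe sets passed. None of the 11 without Rbm11 did, nor had any an unadjusted p under 0.05. The cell cycle mean was 0.17 ± 0.21 (SD, n = 3) for ND and 0.03 ± 0.24 for HFD at 1 month. At 2 months it was 0.05 ± 0.26 and -0.68 ± 0.47, and at 4 months 0.52 ± 0.96 and -0.09 ± 0.51. It was thus lower in HFD at every time, at 1 and 4 months by less than the SD within ND. Unlike the macrophage mean, its diet difference does not cancel in the average over times, and its part in the diet differences was not tested. Slopes of the brightest probe sets ran from -0.30 ± 0.24 in Cwc25 and -0.10 ± 0.06 in Srrm2 to 0.08 ± 0.06 in Puf60.

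**Figure D4:**
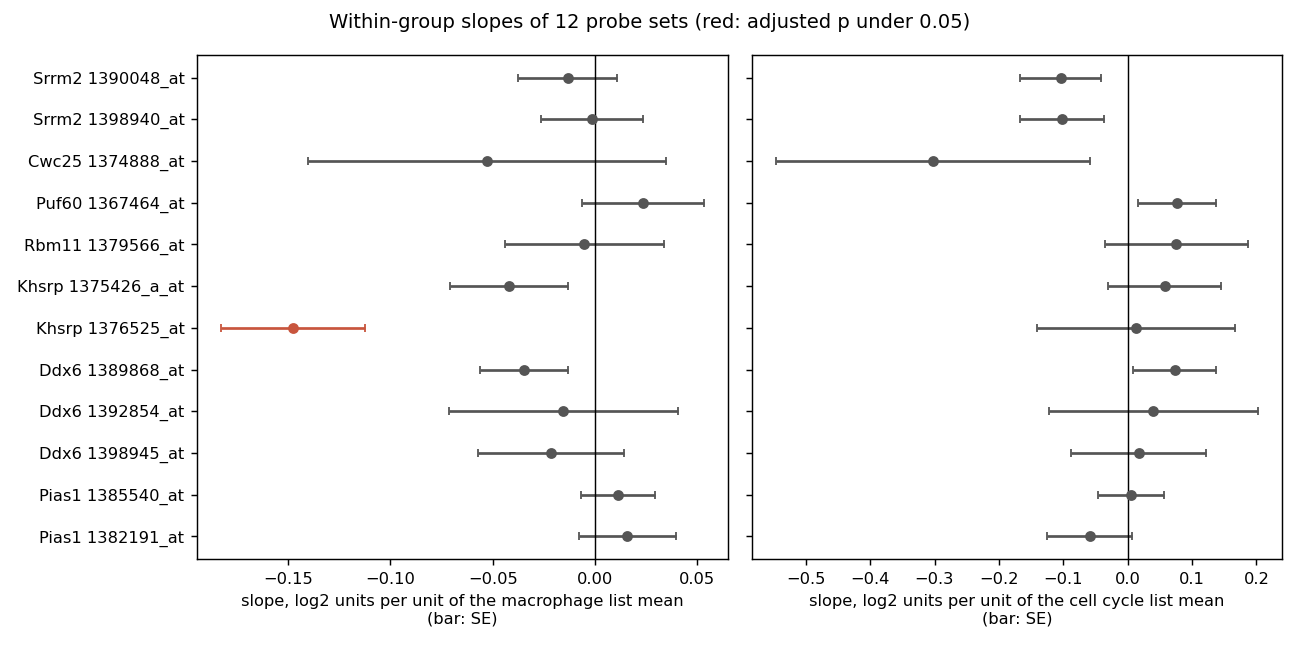
Slope of each of the 12 tested probe sets within groups on the mean of the macrophage list (left) and of the cell cycle list (right), in log2 units per unit of the list mean, with SE bars (18 arrays, 17 for Puf60). Red marks an adjusted p under 0.05 in limma, which Khsrp 1376525_at reached on the left at -0.15. Rbm11 is drawn but left out of the counts in the text.

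The wider pathways were read from lists of genes around the 7, each gene by its brightest tested probe set, which do not include the 7 themselves. For scale, 2.43% of the 11446 named genes passed in the average over times (99 higher and 179 lower in HFD), their median difference was -0.04 and 59.7% were negative. Among the snRNP proteins 3 of 45 fell and 42 of 45 were negative, with a median of -0.11. The members that fell were Sf3b2, a component of the U2 snRNP that binds near the branch site (-0.24 ± 0.05, adjusted p = 0.0223 in limma), the helicase Ddx46 (-0.35 ± 0.07) and Snrpb2 (-0.21 ± 0.05).

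In the lists closest to Srrm2 and Cwc25 no gene passed. Of 34 serine- and arginine-rich and related proteins 30 were negative, with a median of -0.10, 0 passed in limma and 14 had an unadjusted p under 0.05. Srsf1 stood at -0.26 ± 0.07 (adjusted p = 0.0621) and the kinase Srpk1, which phosphorylates such proteins, at -0.27 ± 0.08 (0.0712). Of 32 catalytic step and Prp19 complex factors 21 were negative, with a median of -0.09, 0 passed and 9 had an unadjusted p under 0.05. The helicase Dhx16 stood at -0.24 ± 0.08 and Xab2 at -0.27 ± 0.09.

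Around Puf60, 1 of 18 polypyrimidine tract and branch site factors fell, the branch point binding protein Sf1 (-0.27 ± 0.06, adjusted p = 0.0416 in limma), and 13 were negative, with a median of -0.02. Around Rbm11, 4 of 58 hnRNPs and other splicing regulators fell and 41 were negative, with a median of -0.09. They included Hnrnpu (-0.23 ± 0.05), Rbm10 (-0.23 ± 0.05) and Hnrnpd (-0.44 ± 0.10), which also binds AU-rich elements as AUF1.

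Of 39 deadenylation and decapping factors, those acting beside Ddx6, 1 fell, the deadenylase subunit Cnot6l (-0.25 ± 0.06, adjusted p = 0.0432 in limma), and 25 were negative, with a median of -0.04. Of 35 exosome and nonsense-mediated decay factors 29 were negative, with a median of -0.09, 0 passed and 6 had an unadjusted p under 0.05. Of 20 AU-rich element binding proteins, the class of Khsrp, 10 were negative and 1 rose, Samd4b (0.49 ± 0.09, adjusted p = 0.0194), a repressor that binds stem-loops in messengers. Of 27 messengers with AU-rich elements that Khsrp or tristetraprolin are known to act on, 16 were negative, with a median of -0.03, 0 passed and 5 had an unadjusted p under 0.05. Among these Ptgs2, the inducible cyclooxygenase, stood at 1.12 ± 0.31 (adjusted p = 0.0679) and Nos2 at 0.26 ± 0.07 (0.0710).

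Beside Pias1, 1 of 23 PIAS family and SUMO pathway genes fell, the nuclear body protein Pml (-0.36 ± 0.08, adjusted p = 0.0385 in limma), and 19 were negative, with a median of -0.10. Pias2, Pias3 and Pias4 stood at -0.21, -0.12 and -0.25 and did not pass.

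**Figure D5:**
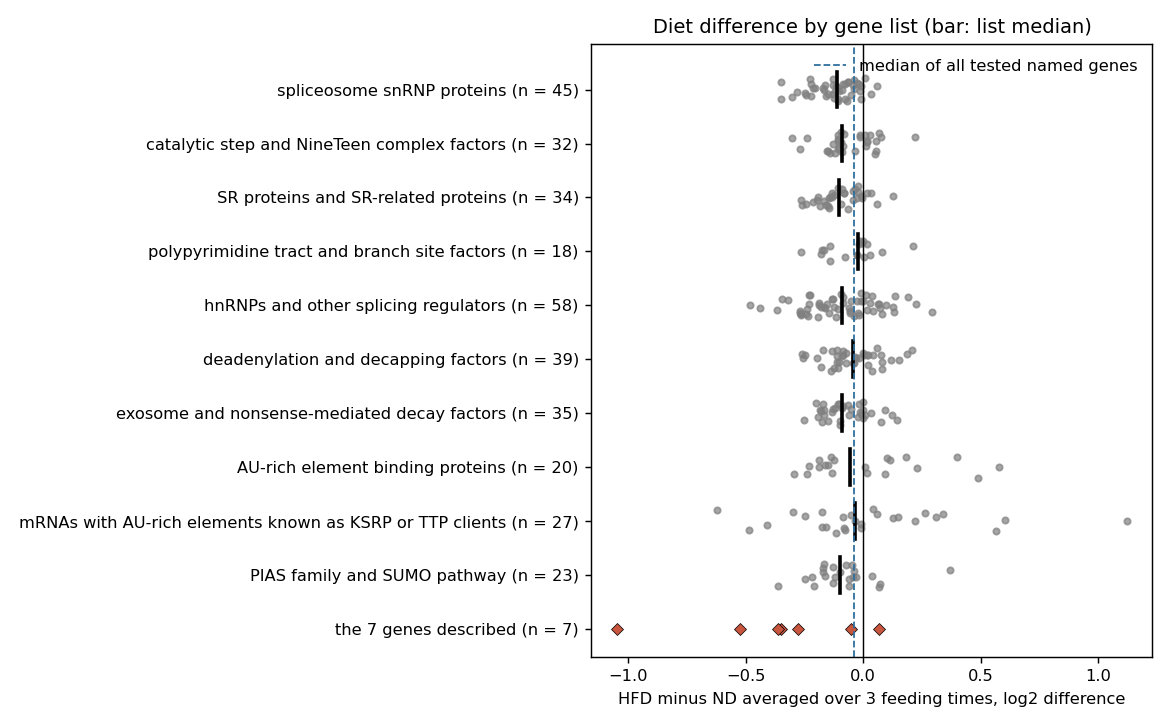
HFD minus ND difference averaged over the 3 feeding times (horizontal axis, log2) of every tested gene in 10 pathway lists (grey points, n in each label) and of the brightest probe sets of the 7 genes described (red diamonds). Black bars are list medians and the dashed line is the median of all 11446 named genes, at -0.04. List medians lie between -0.11 and -0.02.

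By feeding time, no gene of the 10 lists passed in limma at 1 or 4 months, when 0 to 9 genes a list had an unadjusted p under 0.05. At 2 months 2.49% of all named genes passed. Then 2 of 45 snRNP proteins fell, Ddx46 (-0.61 ± 0.13) and Sf3b2 (-0.36 ± 0.08). Of 58 splicing regulators 2 fell, Rbm4b (-0.51 ± 0.12) and Hnrnpd (-0.73 ± 0.18). Of 39 deadenylation and decapping factors 1 fell, Cnot6l (-0.43 ± 0.10). From the same list Lsm14a, which binds Ddx6 in processing bodies, rose by 0.39 ± 0.10 (adjusted p = 0.0459 in limma). Of 20 AU-rich element binding proteins 1 rose, Samd4b (0.77 ± 0.15). No gene passed in the lists of catalytic step, serine- and arginine-rich, polypyrimidine tract, or exosome and nonsense-mediated decay factors. The 2-month HFD group also had the lowest cell cycle mean, and of the 16 tested stromal markers 2 fell in it, Cxcl12 (-3.20 ± 0.47) and Pdgfra (-1.08 ± 0.25), while 10 were positive and the median was 0.05. The part of these in the list results was not tested.

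The list calls depended on single arrays. Of the 10 named genes that passed in the average, between 1 and 10 still passed with 1 array left out, with 1 left without HFD 1-month replicate 3 or without ND 4-month replicate 1. Of the 7 named at 2 months, 0 still passed in limma without ND 2-month replicate 1 or 2 or HFD 2-month replicate 1 or 2, nor when the 2-month arrays were fitted alone. With quantile normalization 1 of 10 and 3 of 7 still passed, with probe sets averaged per gene 4 of 10 and 5 of 7, and with the macrophage mean as a covariate 10 of 10 and 2 of 7. The diet difference of the macrophage mean largely cancels in the average, so 10 of 10 is no test of macrophage content. Over feeding time the only list gene that passed was Btg1, an antiproliferative partner of the deadenylases, which rose by 0.78 ± 0.14 from 1 to 4 months (adjusted p = 0.0449 in limma) but did not pass with the macrophage covariate or without the filter on dim probe sets.

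On the cell cycle mean 2.94% of all 11446 named genes passed, 309 with positive and 28 with negative slopes. The 39 genes that make up the mean are among the 11446. Of the snRNP proteins 8 of 45 passed with positive slopes, led by Lsm2 (0.53 ± 0.07), Lsm3 (0.55 ± 0.08) and Snrpa1 (0.46 ± 0.07). Positive slopes also passed in 3 of 58 splicing regulators and 2 of 35 exosome and nonsense-mediated decay factors. The serine- and arginine-rich, deadenylation and decapping, and AU-rich element binding lists had 1 each, and the catalytic step and polypyrimidine tract lists 0. The cell cycle mean was lower in HFD at every time, and its part in the snRNP diet differences was not tested.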

How the data were processed

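Total RNA of cultured rat BMSC was measured on 18 one-colour Affymetrix arrays. The authors summarised each probe set by RMA (version not given), per the submitters' processing notes, and deposited it as a linear intensity. Values were turned to log2 unchanged otherwise. In the table the values of ND 1-month replicate 1 began 1343 rows too high. They were moved down, which took their correlation with the average of all remaining arrays from 0.0909 to 0.990 (at most 0.394 at other offsets within 5 rows) and leaves the first 1343 probe sets without a value there. Gene symbols are those of the platform annotation, which gives 1 symbol for 20832 probe sets, several for 436 and none for 9831, and positions from the RefSeq gene table of GRCr8. The 57 controls and the dimmest 30% of the others, at or below 3.22 log2 (9.34 linear), were left out. Array medians lay between 25.4 and 27.1 linear units, and the number of arrays limits the precision.

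In limma 3.58.1 under R 4.3.3 the means of the 6 groups were estimated from all arrays together. There were 12 residual and 2.43 prior degrees of freedom, and the residual SD had a median of 0.21. Tests are two-sided and adjusted by Benjamini-Hochberg over the 21729 tested probe sets. Slopes added the list mean as a covariate. The genes, lists and tests were chosen with earlier results of these data known. Every probe set of the 7 genes is described. From each list and comparison up to 3 genes that passed with the largest moderated t are named, or up to 2 where none passed, and the 3 named genes most correlated with each of the 7. Marker genes are given for scale. Whether equal replicate numbers pair arrays was checked on the residuals. Their correlation averaged -0.0254 over the 45 pairs of equal number (lowest -0.572) and 0.0104 over the 90 others, so the numbers were not treated as pairs. The procedure was tested on simulated data. The alternatives were no intensity filter, quantile normalization, robust moderation with an intensity trend, array weights, a replicate block, the macrophage mean as a covariate, the compared groups alone, probe sets averaged per gene and each array left out in turn. A further gene list is not reported here.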

Additional observations from a re-analysis of the deposited data

Results flagged for a closer look

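The diet difference of Rbm11, read by probe set 1379566_at, ran in opposite directions at different feeding times with no overlap between the diets at any of them. At 2 months all 3 HFD arrays were above all 3 ND arrays, with a difference of 0.89 log2 units. At 1 month all 3 HFD arrays were below all 3 ND arrays, at -0.33, and at 4 months likewise, at -0.37. The difference between the times was not tested, since the gene was chosen on these contrasts. Among all tested probe sets 16.6% had no overlap at 1 month, 24.7% at 2 months and 8.54% at 4 months. The level of Rbm11 is close to the intensity filter at 3.22, which it passed only through the HFD arrays at 2 months. Group means were 3.37 in ND and 3.04 in HFD at 1 month, and 3.24 and 2.87 at 4 months. With 1 array left out at a time the 2-month value stayed between 0.75 and 0.97. The 1-month value stayed between -0.44 and -0.26 and the 4-month value between -0.47 and -0.21.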

How the results depend on the processing

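The diet differences of the brightest Srrm2, Khsrp, Ddx6, Pias1 and Cwc25 probe sets were negative at every feeding time under every alternative tried. One alternative averaged the probe sets of a gene in place of the brightest, and there Srrm2 and Ddx6 differed less, as given above. The genes were chosen on the diet contrast, so the stable sign is a description and no support for it. Over arrays left out in turn, the average over times lay between -0.38 and -0.33 for Srrm2, -0.56 and -0.48 for Khsrp, -0.37 and -0.32 for Ddx6, -0.29 and -0.26 for Pias1 and -1.21 and -0.91 for Cwc25. Quantile normalization turned the average of Rbm11 to -0.0006.

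The counts of passing probe sets depended on the settings. At 1 month 1 passed with robust moderation, 28 with array weights and 34 with the macrophage covariate. At 2 months 4330 passed with array weights and 2 with the compared groups alone. In the average 259 passed with quantile normalization, 3317 with array weights, 1310 with the covariate and 248 with probe sets averaged. For 4 minus 2 months 1210 passed with array weights and 0 with the compared groups alone, for 4 minus 1 month 1774 with array weights and 10 with the covariate, and for the macrophage slope 1311 with array weights. With the replicate block 320 passed at 2 months, 350 in the average, 16 for 4 minus 2 and 5 for 4 minus 1 month, and 2304 for the macrophage slope. None of the brightest probe sets of the 7 genes passed in a time comparison or slope, with the block or without it. Of the named list genes 4 of 10 in the average and 3 of 7 at 2 months still passed with the block, and Btg1 did not. The numbers are not treated as pairs. The causes were not tested.

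With 1 array left out the counts ran from 0 to 2 at 1 month, 48 to 1261 at 2 months (without ND 2-month replicate 1 and HFD 2-month replicate 3), 0 to 1 at 4 months, 117 to 1053 in the average (without ND 4-month replicates 1 and 2), 0 to 7, 2 to 462 and 1 to 270 for 2 minus 1, 4 minus 2 and 4 minus 1 month, 1368 to 3869 for the macrophage slope and 157 to 600 for the cell cycle slope.

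Values near 0 changed sign, none of them past the threshold. For 4 minus 1 month Ddx6 was at -0.0050 with quantile normalization, -0.025 with array weights and -0.060 with probe sets averaged. Khsrp was at 0.017 with array weights and 0.012 with the covariate for 2 minus 1 month, at 0.068 with probe sets averaged for 4 minus 2, and at 0.0090 with the covariate for 4 minus 1. The cell cycle slope of Pias1 was -0.0080 with quantile normalization and -0.027 with probe sets averaged. The macrophage slope was 0.014 with quantile normalization and 0.00062 with array weights for Rbm11, and 0.00021 with quantile normalization for Srrm2.

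With 1 array left out Cwc25 ran from -0.17 to 0.21, -0.076 to 0.29 and -0.096 to 0.27 for 2 minus 1, 4 minus 2 and 4 minus 1 month and from -0.093 to 0.017 for the macrophage slope. Ddx6 ran from -0.029 to 0.039 for 4 minus 1 month, Khsrp from -0.054 to 0.065 for 2 minus 1 month and from -0.042 to 0.10 for the cell cycle slope. Pias1 ran from -0.017 to 0.014 for 4 minus 1 month, -0.0067 to 0.027 for the cell cycle slope and -0.00031 to 0.018 for the macrophage slope, and Rbm11 from -0.070 to 0.15 and -0.038 to 0.022 for those slopes.

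With 3 arrays a group, differences near the spread of the arrays, such as those of Puf60, cannot be told from 0, and the dim probe sets of Rbm11 and Khsrp are limited by signal over background.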
